A study of Mus musculus with 6 samples.

Results

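The 8 genes described here, *Amh*, *Amhr2*, *Inha*, *Inhba*, *Inhbb*, *Fst*, *Foxl2* and *Kitl*, stand for granulosa cell identity and for the inhibin, activin and anti-Müllerian hormone system of the ovary. They were chosen by name, and every probe whose transcript maps to one of them was taken, which gave 9 of the 55681 probes other than controls and 8 of the 20284 genes that could be named. *Foxl2* has 2 probes and each other gene has 1.

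The study gave immature female CD-1 mice fluorene-9-bisphenol (BHPF), a bisphenol used in place of bisphenol A, or its vehicle, peanut oil, through a stomach tube once a day. Each dose held 50 mg per kg of body weight, and dosing went on for 3 days. The labels give an age of 24 days, and the methods give postnatal day 21 for the first dose. Ovary, uterus and liver of control and BHPF mice make 6 groups, each measured on 1 single-colour array hybridized with RNA pooled from 3 mice. The comparison of BHPF with control ovaries asks whether the treatment altered the granulosa cell genes, and the other tissues give the level of the same genes outside the ovary.

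Granulosa cells surround the oocyte and secrete peptide hormones of the TGF-β superfamily. The inhibin α subunit pairs with a β subunit to form inhibin, which restrains the release of follicle-stimulating hormone from the pituitary, whereas dimers of β subunits form activins, which stimulate it. Follistatin binds activin and blocks it, anti-Müllerian hormone from growing follicles restrains the recruitment of primordial follicles through its own type II receptor, KIT ligand signals from granulosa cells to the oocyte, and FOXL2 is a transcription factor that maintains ovarian identity.

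Levels are given as the log2 intensity of a probe relative to the 75th percentile of its array, so that a level of 0 equals that percentile. A level of one probe cannot be set against that of another probe. Between 61.3% and 74.5% of the probes of an array were well above background by the scanner software, and no probe was saturated. Within a tissue there is 1 array a group, so no p value can be given there. Probes spotted several times on an array give the noise between spots, which puts an SD of 0.15 (log2) on a ratio of the ovary arrays and 0.16 on a ratio of the uterus or liver arrays, and this covers no difference between animals. The 95% range of that noise is given below as the noise range. All 6 arrays lay on 1 slide, on which the treatment cannot be told apart from the position of an array. On the BHPF uterus array the 9 hepatocyte marker genes measured were all at least 2-fold higher than on the control uterus array, with a median log2 ratio of 4.28 and a summed level 16.3-fold higher. In the deposited table of log2 values the uterus columns headed control and BHPF hold each other's scanner values, so that every uterus direction below rests on the conditions of the scanner files.

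The RefSeq table of promoter sequences (build GRCm38.p6) held 6 of the 8 genes, all but *Amh* and *Fst*. The 250 bases before each listed start were searched on both strands for 5 short motifs, the NR5A half-site AAGGTCA, the GATA motif AGATAA, the cyclic AMP response element TGACGTCA, the forkhead motif TAAACA and the palindromic oestrogen response element. These occurred in 4.08%, 9.99%, 1.55%, 12.0% and 0.0639% of all 32851 windows of this length. The only match in the 6 windows was 1 NR5A half-site at bases -231 to -225 of *Amhr2*, on the forward strand, shown here in capitals with its neighbours because it was the only match. The window of *Amhr2* lies inside the annotated gene, which has an earlier start than the one listed.

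Amhr2, chr15:102445125-102445153, forward strand: caccttcttccAAGGTCAgtaggggtaga

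For 4 of the 6 genes the window overlaps the annotated gene. It lies wholly inside the gene for *Amhr2*, *Inha* and *Inhba* and runs across the annotated start for *Kitl*. The bases before the annotated start of *Amhr2*, *Inha* and *Inhba* were therefore not searched. For *Inhbb* and *Foxl2* the window lies wholly outside the gene. Both are printed, as *Inhbb* was far higher in the ovary than in the liver while *Foxl2* was not. Neither holds any of the 5 motifs, so that no base is in capitals.

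Inhbb, chr1:119422249-119422498, reverse strand: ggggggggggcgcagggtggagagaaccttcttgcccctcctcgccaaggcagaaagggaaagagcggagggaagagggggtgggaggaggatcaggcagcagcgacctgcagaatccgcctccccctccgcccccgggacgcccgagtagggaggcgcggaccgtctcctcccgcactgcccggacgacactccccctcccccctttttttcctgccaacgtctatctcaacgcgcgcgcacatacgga

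Foxl2, chr9:98955357-98955606, forward strand: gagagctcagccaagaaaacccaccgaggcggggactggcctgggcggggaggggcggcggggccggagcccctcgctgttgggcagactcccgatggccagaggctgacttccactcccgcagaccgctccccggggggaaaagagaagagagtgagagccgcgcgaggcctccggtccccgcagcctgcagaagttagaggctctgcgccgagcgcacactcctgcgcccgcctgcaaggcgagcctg

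In the ovary all 8 genes were measured on both arrays, and BHPF and control differed little. None of the 8 differed by 2-fold or more, where 1.27% of the 41674 probes evaluated in the ovary did. The log2 ratios of BHPF to control ran from 0.02 to 0.29 with a median of 0.10, and all 8 lay within the noise range (0.30 either way). All 8 ratios were above 0, as were 51.6% of the 16862 genes evaluated, whose median ratio was 0.01 and whose central 90% ran from -0.37 to 0.35. After quantile normalization 5 of the 8 were above 0 and with normexp background correction 6 were, so the common direction depends on the processing. In pooled tissue RNA, fewer granulosa cells and less RNA per cell cannot be told apart, here and in every comparison below.

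The hormone subunits come first. *Inha*, the inhibin α subunit, had a level of 4.35 on the control ovary array and 4.40 on the BHPF ovary array, a log2 ratio of 0.05. The noise range alone allows a BHPF level between 0.840 and 1.27 times the control. *Inhba*, the βA subunit, had a level of 3.15 in control and 3.30 in BHPF ovaries, a log2 ratio of 0.15. *Inhbb*, the βB subunit, had a level of 3.28 in control and 3.44 in BHPF ovaries, a log2 ratio of 0.16. The α subunit and both β subunits therefore lay on the same side of 0, each within the noise. With normexp background correction the ratio of *Inhbb* was -0.16, opposite in sign, and that of *Inha* was 0.22. After quantile normalization *Inha* had a ratio of -0.09.

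*Amh*, the anti-Müllerian hormone, had a level of -1.14 in control and -0.95 in BHPF ovaries. Its log2 ratio was 0.19, and the noise range allows 0.927 to 1.40 times the control. *Amhr2*, the receptor of that hormone, had a level of 2.66 in control and 2.72 in BHPF ovaries, a log2 ratio of 0.06. Hormone and receptor both lay within the noise range, although with normexp correction the ratio of *Amhr2* was 0.45 and that of *Amh* was 0.00.

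*Fst*, which encodes follistatin, had a level of 2.92 in control and 2.98 in BHPF ovaries, a log2 ratio of 0.06. *Kitl*, the KIT ligand, had a level of 1.0 in control and 1.29 in BHPF ovaries. Its log2 ratio of 0.29 (1.22-fold) was the largest of the 8 and lay just within the noise, and 7.49% of all genes evaluated in the ovary had a higher ratio. With normexp correction it was 0.09. The first *Foxl2* probe had levels of 4.31 and 4.35 in control and BHPF ovaries and the second of -2.90 and -2.89, and the log2 ratio over both was 0.02.

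**Figure D1:**
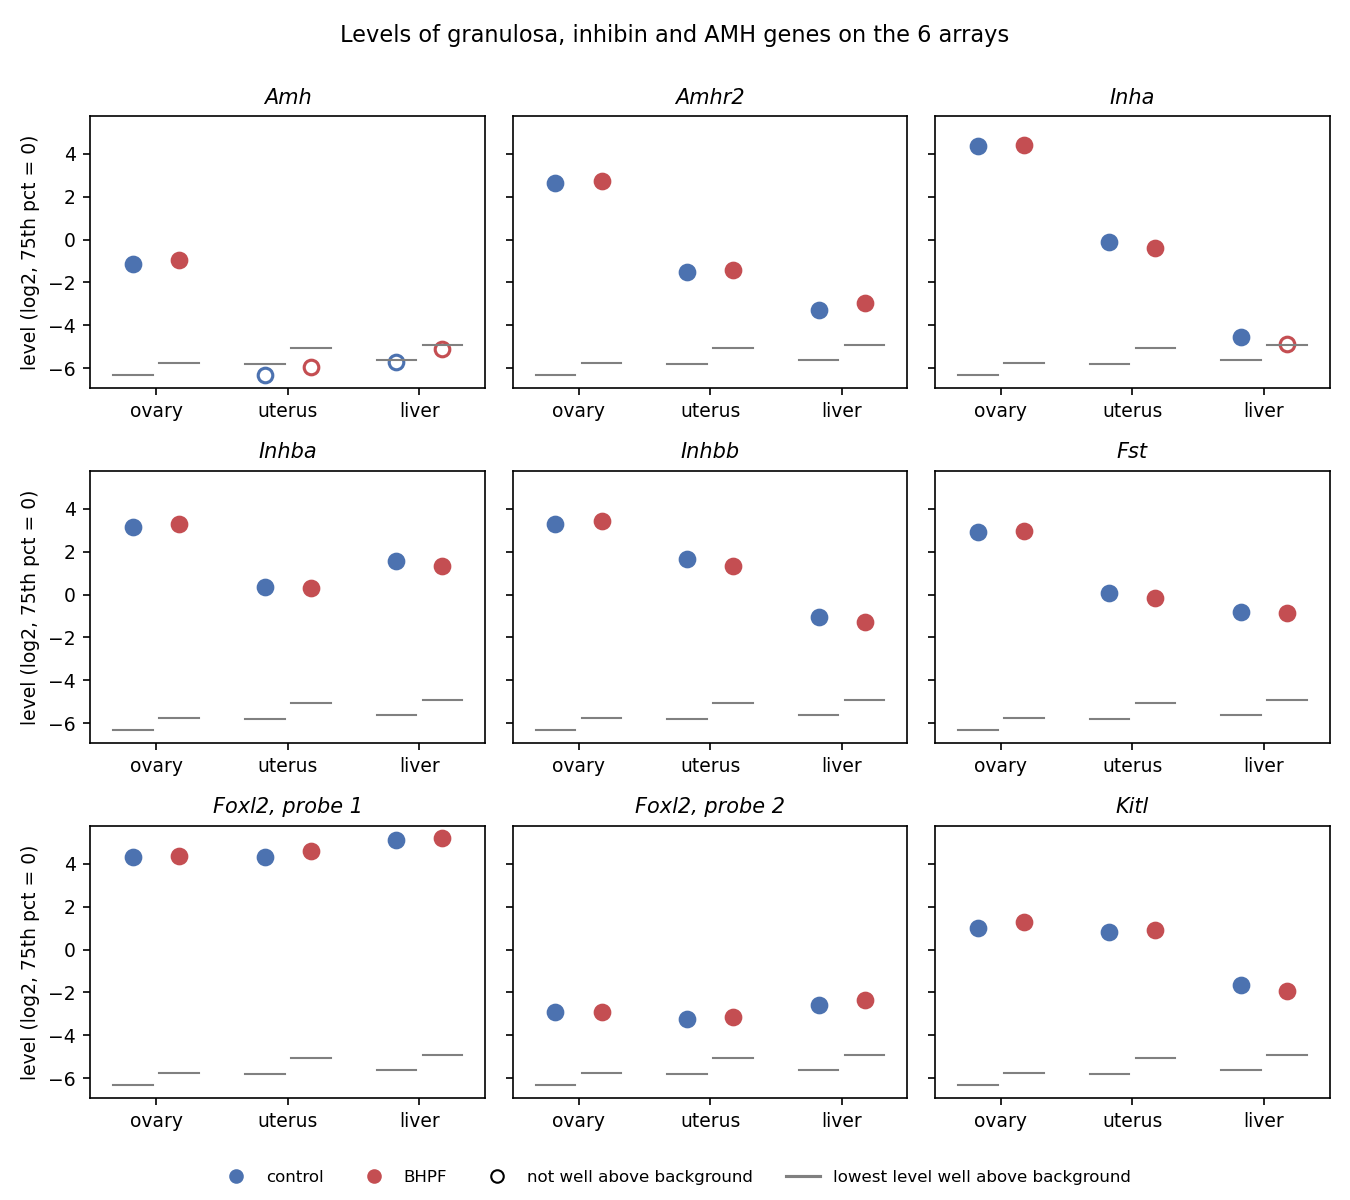
Level of each of the 9 probes (log2 intensity relative to the array's 75th percentile) on the 6 arrays, blue for control and red for BHPF, with open circles where the probe was not well above background and grey lines at the lowest level well above background on each array. Within each tissue the blue and red circles lie close together, and *Inha*, *Amhr2* and *Amh* stand far higher in the ovary than in the uterus and liver, whereas both *Foxl2* probes lie at like levels in all 3 tissues.

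The tissues differed far more than the treatments. In limma over all 6 arrays, with tissue and treatment as terms, 6 of the 9 probes were higher in the ovary than in the uterus at an adjusted p below 0.05 and at least 2-fold, where 9.32% of the 40432 probes tested were, and 7 of 9 were higher in the ovary than in the liver, where 23.7% were. None of the 9 was lower in the ovary by this call, where 10.2% and 17.7% of all probes were. Between uterus and liver 4 of the 9 were higher in the uterus (22.3% of all probes) and 1 was lower (16.1%). The control and the BHPF array of a tissue served as its 2 arrays. With treatment as a term, the spread is what is left after a treatment difference common to the tissues, with 2 residual degrees of freedom. The fit also drew on the spread of all probes (2.24 prior degrees of freedom). No group has a second pool, so these p values do not measure the spread between pools of 1 group.

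*Inha* had levels of 4.35 and 4.40 in the ovary (control first, BHPF second), -0.10 and -0.39 in the uterus and -4.56 and -4.87 in the liver, where the BHPF array was not well above background. The 3 tissues did not overlap. The ovary exceeded the uterus by 4.62 ± 0.16 (log2, SE, 2 arrays a tissue; limma adjusted p = 0.000778) and the liver by 9.09 ± 0.16 (adjusted p = 0.000262), with 1 of the 2 liver arrays measured above background. The uterus in turn exceeded the liver by 4.47 ± 0.16 (adjusted p = 0.000302).

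*Amh* had ovary levels of -1.14 and -0.95, and was not well above background on any of the 4 other arrays. Its level was at least 20.9-fold higher in the ovary than in the uterus (limma adjusted p = 0.000778) and at least 18.6-fold higher than in the liver (adjusted p = 0.000301), each bound taken against the lowest signal well above background. *Amhr2* had ovary levels of 2.66 and 2.72, uterus levels of -1.51 and -1.41 and liver levels of -3.27 and -2.95, all well above background. The receptor was therefore measured in the uterus and the liver, where its ligand was not. It was higher in the ovary than in the uterus by 4.15 ± 0.14 (log2, limma adjusted p = 0.000778), and higher in the uterus than in the liver by 1.65 ± 0.14 (adjusted p = 0.00148).

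The activin β subunits ranked the tissues differently. *Inhba* had levels of 3.15 and 3.30 in the ovary, 0.37 and 0.30 in the uterus and 1.59 and 1.32 in the liver. It was higher in the ovary than in the uterus by 2.89 ± 0.16 (limma adjusted p = 0.00142) and than in the liver by 1.77 ± 0.16 (adjusted p = 0.00156). The uterus lay below the liver by 1.12 ± 0.16 on the log2 scale (fitted difference -1.12, adjusted p = 0.00553), a call lost without the control uterus array (adjusted p = 0.0501), without the BHPF uterus array (adjusted p = 0.0512) and without the control liver array (difference -0.97), and also after quantile normalization (-0.87) and on the 75th percentile of probes above background on all arrays (-0.76).

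*Inhbb* had levels of 3.28 and 3.44 in the ovary, 1.64 and 1.34 in the uterus and -1.04 and -1.27 in the liver. The liver was thus its lowest tissue, where it was the middle tissue for *Inhba*. The ovary exceeded the uterus by 1.87 ± 0.17 (limma adjusted p = 0.00426), which became 1.74 with an adjusted p of 0.0557 without the BHPF uterus array. It exceeded the liver by 4.51 ± 0.17 (adjusted p = 0.000309), and the uterus exceeded the liver by 2.65 ± 0.17 (adjusted p = 0.000786). In the uterus *Inhbb* had a log2 ratio of BHPF to control of -0.30 and in the liver of -0.24, both within the noise range.

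*Fst* had levels of 2.92 and 2.98 in the ovary, 0.09 and -0.14 in the uterus and -0.83 and -0.88 in the liver. Follistatin transcript was higher in the ovary than in the uterus by 2.98 ± 0.14 (limma adjusted p = 0.00108) and than in the liver by 3.81 ± 0.14 (adjusted p = 0.000301), while the uterus and the liver differed by 0.83 ± 0.14, under 2-fold, or by 1.19 on the 75th percentile of probes above background on all arrays, where it was called. *Kitl* had levels of 1.0 and 1.29 in the ovary, 0.80 and 0.92 in the uterus and -1.66 and -1.92 in the liver. It did not differ between ovary and uterus beyond the spread of the arrays (0.29 ± 0.18, limma adjusted p = 0.298), and both exceeded the liver, the ovary by 2.94 ± 0.18 (adjusted p = 0.000674) and the uterus by 2.65 ± 0.18 (adjusted p = 0.000889).

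*Foxl2* went against its role as a granulosa cell marker on this array. Its first probe had levels of 4.31 and 4.35 in the ovary, 4.32 and 4.60 in the uterus and 5.12 and 5.19 in the liver. The second had levels of -2.90 and -2.89 in the ovary, -3.24 and -3.15 in the uterus and -2.57 and -2.34 in the liver. Neither probe was higher in the ovary than in the uterus by the test, with differences of -0.13 ± 0.14 (limma adjusted p = 0.503) and 0.30 ± 0.13 (adjusted p = 0.167). Both were highest in the liver, above the ovary by less than 2-fold (fitted differences of the ovary from the liver -0.83 ± 0.14 and -0.44 ± 0.13). These differences depended on the processing. Over the alternatives that of the first probe ran from -1.14 (50th percentile, past 2-fold) to 0.10, where the ovary was the higher. That of the second probe ran from -0.75 to -0.06. What the 2 probes bind besides *Foxl2* was not tested.

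The BHPF uterus array carried the hepatocyte markers, so the uterus contrasts were also fitted without it. *Amh* (at background on the remaining uterus array), *Amhr2* (4.10), *Inha* (4.54), *Inhba* (2.89) and *Fst* (2.86) were still called higher in the ovary than in the uterus, with limma adjusted p values between 0.0246 and 0.0323, and *Inhbb* was not. *Inha* (4.55), *Inhbb* (2.78), *Kitl* (2.60) and *Amhr2* (1.69) were still called higher in the uterus than in the liver, with adjusted p values between 0.00806 and 0.0215.

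**Figure D2:**
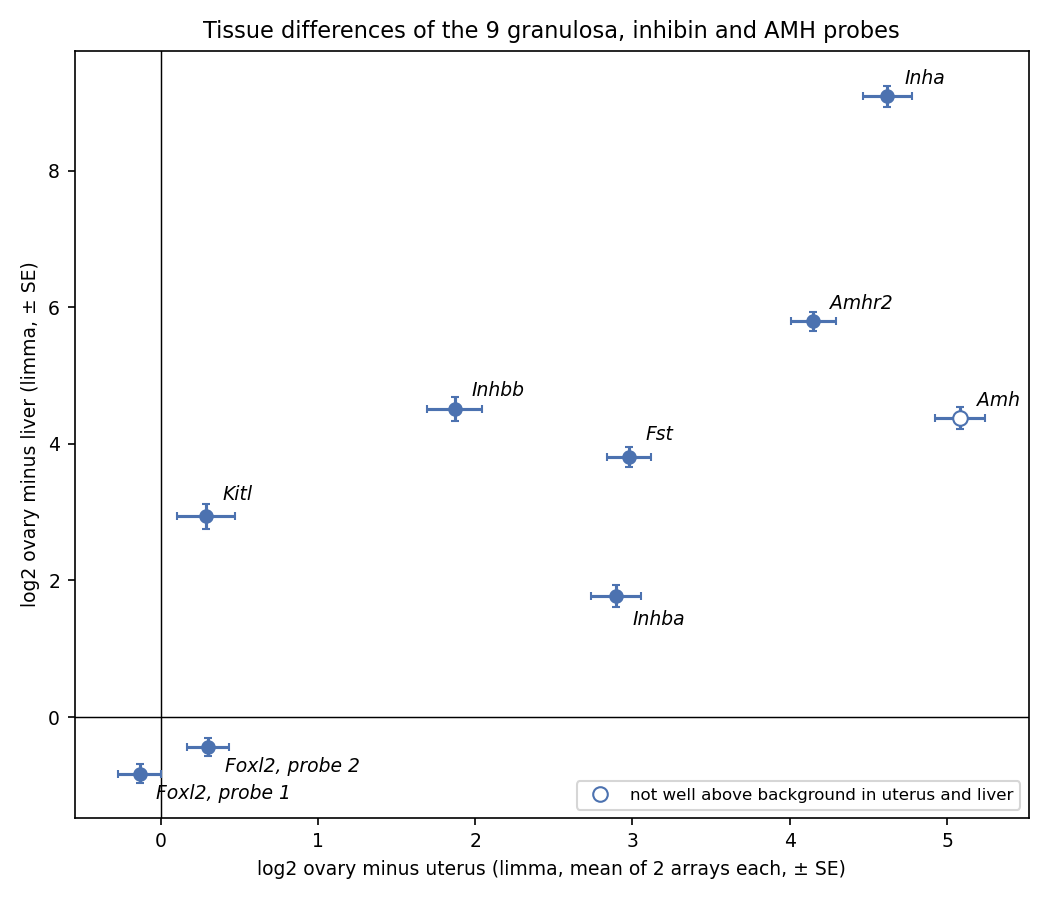
Difference in level between ovary and uterus (horizontal axis) and between ovary and liver (vertical axis) for the 9 probes, as log2 from limma with 2 arrays a tissue and bars of 1 SE, the open circle standing for *Amh*, which was not well above background in uterus or liver. *Inha* lies highest with 9.09 over the liver, *Kitl* lies near 0 on the uterus axis, and both *Foxl2* probes lie below 0 on the liver axis.

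In the uterus 7 of the 8 genes could be evaluated between treatments, all but *Amh*. None differed by 2-fold, where 2.65% of the 38802 probes evaluated did, and all 7 were within the noise range (0.31). *Inha* went from -0.10 to -0.39 (log2 ratio -0.29), *Fst* had a ratio of -0.22 and *Inhba* of -0.07, while *Kitl* (0.12), *Amhr2* (0.10) and *Foxl2* (0.18) lay above 0. Over the 7 genes the median was -0.07, against 0.00 over all genes, and the part of the hepatocyte markers in these ratios was not tested. In the liver the same 7 genes were evaluated and none differed by 2-fold, where 7.09% of the 36578 probes did. Their median log2 ratio was -0.24, with *Inhba* at -0.27, *Kitl* at -0.26 and *Amhr2* at 0.32, the last just beyond the noise range (0.31). The ratio of *Inha*, -0.31, rests on a BHPF liver level that was not well above background. That level (-4.87) lay above the array's lowest signal well above background (-4.91), so the ratio is the probe's own difference. It was -0.63 on the 50th percentile, -0.77 after quantile normalization and -0.06 with normexp correction. The liver ratios moved with the scaling, since on the 50th percentile the median of all liver genes shifted to -0.30 and the ratio of *Amhr2* to 0.01. In the limma term for BHPF common to the 3 tissues, 0 of the 9 probes and 0 of all 40432 had an adjusted p below 0.05 (0%), and 2357 of the 40432 had an unadjusted p below 0.05. The fitted BHPF differences of the 9 probes ran from -0.19 ± 0.13 for *Inha* to 0.40 ± 0.13 for *Amh*, the latter with 4 of its 6 arrays at background.

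The other subunits, binding proteins, receptors and SMAD proteins of the pathway were 28 genes, of which 25 were evaluated in the ovary. None of the 25 differed by 2-fold, where 1.27% of all probes did. Of the 25, 6 had a log2 ratio above 0, 18 below and 1 at 0, with a median of -0.08, against 0.01 over all genes. The lowest was *Acvr1c*, the type I receptor ALK7, at -0.73, whose 2 probes went from -4.41 to -5.32 and from -3.33 to -3.87. *Smad7*, an inhibitory SMAD, went from 0.31 to -0.04 (ratio -0.35), and *Grem1*, a secreted BMP antagonist, went from -0.37 to -0.04 (ratio 0.33). Further ratios were -0.10 for *Smad4*, the common partner SMAD, 0.18 for *Tgfbr3*, the inhibin co-receptor betaglycan, 0.00 for *Bmpr1a*, a type I BMP receptor, and -0.11 for *Bmp2*, a BMP ligand.

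Across tissues, 7 of the 36 pathway probes tested, from 27 genes, were called higher in the ovary than in the uterus and 4 lower. Against the liver, 8 of the 36 were called higher in the ovary and 4 lower. Of all probes, 9.32% were higher and 10.2% lower than in the uterus, and 23.7% higher and 17.7% lower than in the liver. *Bmpr1b*, a type I receptor for BMPs, stood out on both of its probes, 3.79 ± 0.31 and 3.56 ± 0.13 (log2) above the uterus (limma adjusted p = 0.00325 and 0.000787) and not well above background in the liver. *Grem1* was at least 37.5-fold higher in the ovary than in the uterus (adjusted p = 0.000789) and at least 33.3-fold higher than in the liver (adjusted p = 0.000296). *Fstl3*, a relative of follistatin, was lower in the ovary than in the uterus (-1.55 ± 0.13, adjusted p = 0.00364) and higher in the ovary than in the liver (1.47 ± 0.13, adjusted p = 0.00162).

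The liver had its own β subunits. *Inhbc*, the βC subunit, had levels of 2.99 and 2.92 in the liver and was not well above background on any ovary or uterus array, at least 509-fold higher in the liver than in the ovary (limma adjusted p = 0.00051). *Inhbe*, the βE subunit, had levels of 2.49 and 2.22 in the liver, -6.06 and -5.62 in the ovary, where the BHPF array was not well above background, and -5.45 and -4.52 in the uterus. Of the uterus arrays *Inhbe* was well above background on the BHPF array alone, the same array that carried the hepatocyte markers. Its log2 ratio there was 0.93, taken from the control level as measured. Its liver ratio was -0.27, and that of *Inhbc* was -0.07.

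**Figure D3:**
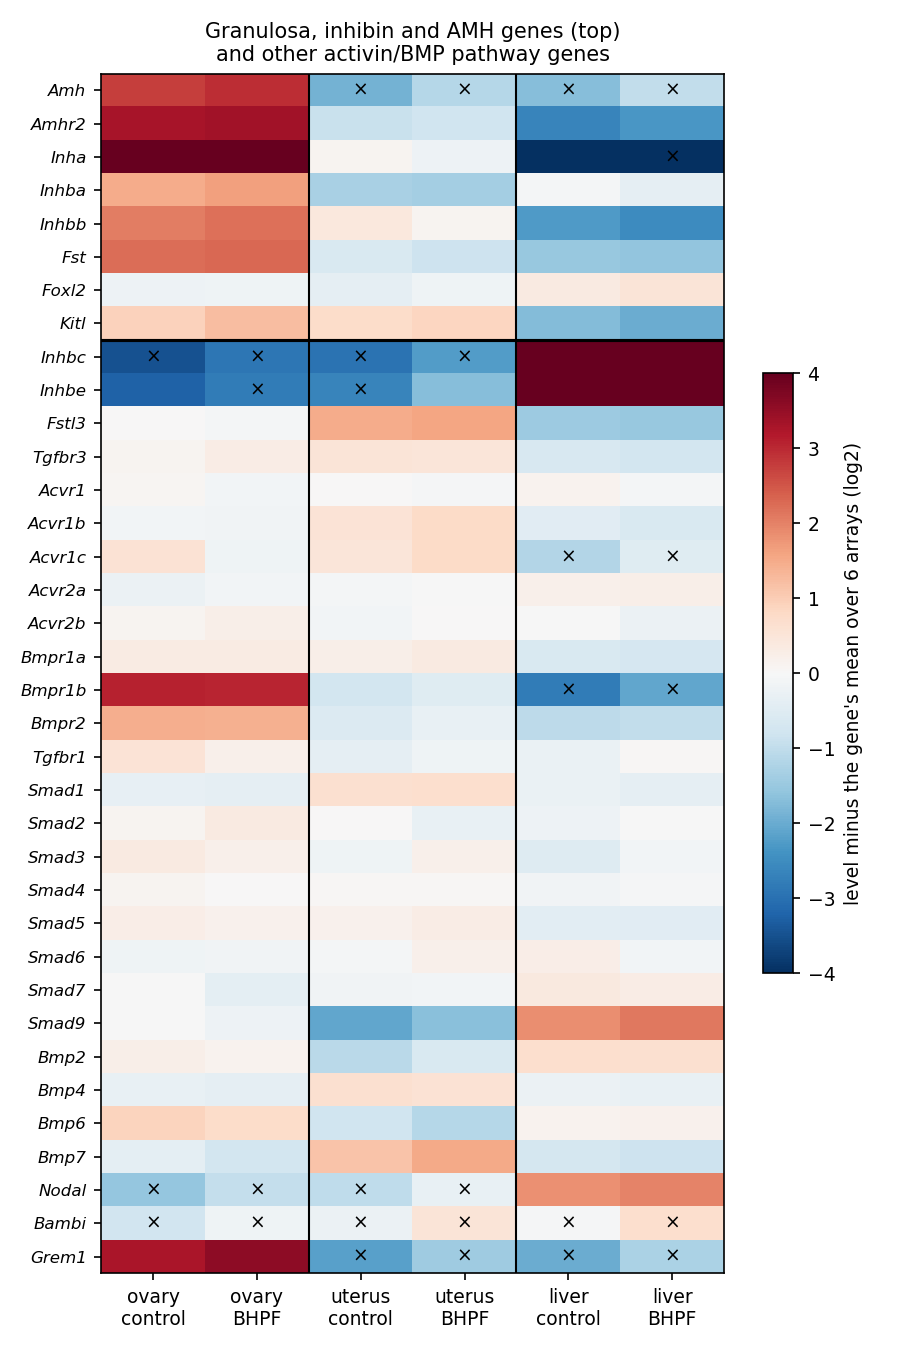
Level of each gene minus its mean over the 6 arrays (log2, mean of its probes, levels below an array's lowest signal well above background set to that signal), for the 8 genes above the line and the 28 other pathway genes below it, with crosses where no probe was well above background and colours ending at 4 in either direction. Control and BHPF columns of a tissue look alike, *Inha* and *Amhr2* are deep red in the ovary only, and *Inhbc* and *Inhbe* in the liver only.

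Other granulosa cell genes were mostly higher in the ovary than in the other tissues. All 20 were evaluated in the ovary, 11 with a ratio above 0 and 9 below, with a median of 0.02 and none at 2-fold. *Fshr*, the receptor of follicle-stimulating hormone, had ovary levels of 2.04 and 2.23 (log2 ratio 0.19) and was not well above background on the uterus and liver arrays. *Cyp19a1*, the aromatase that makes oestrogen, went from 1.59 to 1.32 (ratio -0.27), and *Hsd17b1*, which makes oestradiol from oestrone, from 3.06 to 3.22 (ratio 0.16). The probe of *Esr2*, the oestrogen receptor β, went from 3.45 to 3.13 (ratio -0.32). Like the *Foxl2* probes it was no higher in the ovary than in the uterus (0.05 ± 0.20, limma adjusted p = 0.867). Nor was it higher than in the liver, where its levels were 3.51 and 3.83 (-0.38 ± 0.20, limma adjusted p = 0.167). What this probe binds besides *Esr2* was not tested. *Nr5a1*, the transcription factor SF-1, had a level of 2.68 on both ovary arrays, against -1.26 and -1.31 in the uterus and -0.21 and -0.04 in the liver. *Ccnd2*, a cyclin of granulosa cell division, had an ovary ratio of -0.04. The highest ratio of the list was that of *Wnt4*, a ligand of the ovarian pathway, from -0.27 to 0.27 (0.54). By the limma call, 16 of the 23 probes of these 20 genes were higher in the ovary than in the uterus and 2 lower. Against the liver, 18 of the 23 were higher in the ovary and 2 lower. Of all probes, 9.32% were called higher and 10.2% lower than in the uterus, and 23.7% higher and 17.7% lower than in the liver.

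Of 14 oocyte genes none differed by 2-fold in the ovary, with a median ratio of 0.00, among them *Kit*, the receptor of KIT ligand, at -0.01 and *Gdf9*, an oocyte growth factor, at 0.32. *Zp3*, a protein of the zona pellucida, had a ratio of 0.04, *Oosp1* of -0.09 and *Nlrp5*, the lowest of the oocyte list, of -0.16. Of 9 theca and luteal genes evaluated, 3 were above 0 and 6 below with a median of -0.10. The lowest were *Akr1c18*, which breaks down progesterone, at -0.84, and *Ptgfr*, the prostaglandin F receptor, also at -0.84. *Star*, which carries cholesterol into mitochondria, followed at -0.51. The BHPF level of *Ptgfr* was not well above background. The steroid enzymes *Cyp17a1*, *Cyp11a1* and *Hsd3b1* had ratios of -0.10, -0.10 and 0.00. The highest of the theca and luteal list was *Gli1* at 0.31. Of 10 genes of dividing cells the median was 0.01. Of 10 genes of the testis side the median was 0.10 with none at 2-fold.

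Some markers of other cells differed by 2-fold or more between the ovary arrays, where none of the 8 genes and 1.27% of all probes did. Of 6 neutrophil genes 4 were at least 2-fold lower with BHPF (list median -1.89, summed level 0.264 times the control), and of 4 macrophage genes 2 were, *Marco* at -2.71 and *Adgre1* at -1.20. Of 4 fat cell genes evaluated 2 were at least 2-fold higher, *Cfd* (2.05) and *Adipoq* (1.35), while *Plin1* (-0.07) and *Fabp4* (0.04) were not (list median 0.70), and *Foxj1*, a gene of ciliated cells, was lower (-1.16). The hepatocyte markers had a median of 0.39 in the ovary with none at 2-fold. The medians of the other lists were -0.03 for oviduct and surface genes, 0.07 for stroma and muscle, -0.10 for endothelium and -0.16 for the 2 erythroid genes evaluated. The part of these cells in the ratios of the 8 genes was not tested.

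**Figure D4:**
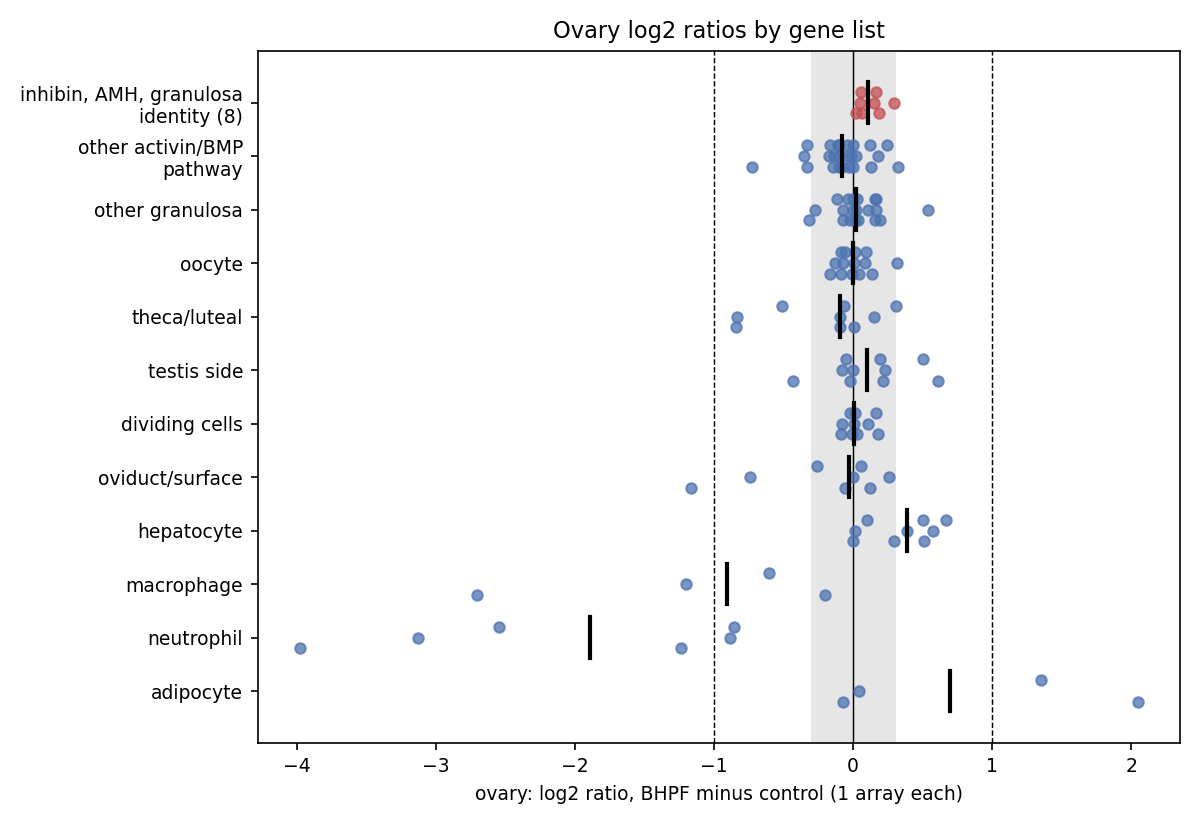
Log2 ratio of BHPF to control in the ovary, 1 array each, for every evaluated gene of 12 lists, with the 8 genes in red, black bars at list medians, a grey band over the noise range and dashed lines at 2-fold. The red points lie between 0.02 and 0.29 inside the band, and the neutrophil, macrophage and adipocyte lists reach past the dashed lines.

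The genes whose pattern over the 6 arrays lay closest to a given gene were found by the root mean square difference of their levels after each gene's mean was subtracted, among 16012 genes. For *Inha* they were *Pramel29*, *Thbs4* and *Nap1l5*, at distances of 0.61 to 0.80 (log2). Pearson's r was 0.984 to 0.990 across the 6 arrays, which share their tissues. *Pramel29* and *Thbs4* had both liver levels at the background floor and *Nap1l5* the BHPF liver level only, whereas those of *Inha* lay above it. For *Amh* they were *Pramel15*, *Txndc2* and *AA545190*, at 0.02 to 0.04, where 4 of the 6 levels are background values for all of them. For *Foxl2* they were *Ndufaf8*, *Psma6* and *Dctn3*, at 0.03 to 0.05, each well above background on all 6 arrays.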

How the data were processed

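RNA of ovaries, uteri and livers of female CD-1 mice, 1 pool of 3 mice a group, was labelled with Cy3 and hybridized to Agilent mouse arrays. The authors read the scans into intensities with Agilent Feature Extraction (version 9.1 in the labels, 11.5.1.1 in the file headers) and deposited for each spot a linear intensity after background subtraction, with flags for spots well above background. They also deposited a log2 table made in GeneSpring, whose columns equal the log2 intensity minus a constant for at least 99.1% of the values (tolerance 0.001), save that the uterus columns are exchanged. It was an alternative only.

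Control and outlier spots were left out, spots of a probe were averaged as log2, and the 75th percentile of the array was subtracted. Probes were named through their transcript in the RefSeq table (26762 of 55681 probes), and the array design's own build, mm9, was not used for positions. Probes of a gene were averaged. Evaluation of a probe in a tissue needed it to be well above background on at least 1 array. A dim level on the other array was kept as measured, unless it lay below that array's lowest signal well above background. In that case the lowest signal served as a bound. A change was called at 2-fold. The tissues were compared with limma 3.58.1 (R 4.3.3) over probes well above background on both arrays of at least 1 tissue, with Benjamini-Hochberg adjustment over all 40432 probes. The labels carry no replicate numbers and each pool was measured once. The limma test of ovary against uterus was tried on simulated arrays that had the same spread for every probe. The 2-fold call between single arrays was not tried in this way. The uterus against liver contrast and the table with its uterus columns exchanged back were added after the data had been seen. Normexp used median spot intensities, since no mean is given.

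The genes and the 15 lists were chosen with earlier results of these data known. Named were the 8 genes, of each other list the genes at 2-fold in the ovary and the 4 with the highest probe signal on the control ovary array, of the pathway list also those at 2-fold in the other tissues, and the 3 nearest patterns of *Amh*, *Inha*, *Inhba* and *Foxl2*, of which those of *Inhba* are not reported here. *Acvr1c*, *Smad7*, *Grem1*, *Bmpr1b*, *Fstl3*, *Inhbc*, *Inhbe*, *Bmp7*, *Fshr*, *Cyp19a1*, *Wnt4*, *Akr1c18*, *Ptgfr*, *Star* and *Kit* were named after their values had been seen. Python 3.11.15, numpy 2.4.6, pandas 2.3.3 and matplotlib 3.10.9 were used.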

Additional observations from a re-analysis of the deposited data

Results flagged for a closer look

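*Bmp7*, a bone morphogenetic protein of the pathway list, had opposite ratios in the ovary and the uterus. Its log2 ratio of BHPF to control was -0.34 in the ovary, where the level went from -0.21 to -0.55, and 0.35 in the uterus, where it went from 1.33 to 1.68. Both were beyond 2 SD of the noise between spots. With 1 array a group the difference between the tissues was not tested, and the direction in the uterus turns if the deposited table is read as headed.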

How the results depend on the processing

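No paired analysis was possible because the labels give no replicate numbers and each group has 1 array, and the tissue fit holds the treatment as its only block. No ratio of the 8 genes reached 2-fold in any tissue under the alternatives run. With normexp background correction the ovary median of the pathway list was -0.033 and that of the other granulosa cell genes 0.077. Of the 9 probes, 5 were called between uterus and liver, but 8 on the 50th percentile and 9 with no minimum fold. Leaving out 1 array at a time gave 5 to 6 probes called between ovary and uterus, 7 to 7 between ovary and liver, 4 to 5 between uterus and liver and 0 to 0 for the BHPF term. Of the values of single genes under an alternative, 24 moved by more than the noise between spots and 195 did not. The 195 include values that could not move. Settings for dim probes or for the brightest probe leave a gene with 1 probe well above background on both arrays unchanged. The uterus values that moved under the deposited table did so through its exchanged columns. The 5 ovary values among the 24, *Amh*, *Amhr2*, *Inha*, *Inhbb* and *Kitl*, all moved under normexp. Genes near background, such as *Amh* outside the ovary, have only bounds, and with 1 array a group no ratio carries an error between animals.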
